A study of Chromochloris zofingiensis with 18 samples.

Results

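The comparison covers Chromochloris zofingiensis after 6 h of sulfur starvation (SS-6 h) against the start of the treatment (0 h). It took the 6 samples titled as these 2 time points, 3 replicates each, out of 18 samples in 6 groups, and used the FPKM (fragments mapped to a gene, adjusted for transcript length and for the size of the library) of all 15220 genes listed in at least 1 sample, with genes missing from a sample's list set to 0. C. zofingiensis is a unicellular green alga known for storing triacylglycerol (TAG) and the red ketocarotenoid astaxanthin under stress. All cultures were of strain ATCC30412, grown as liquid columns under continuous light with air enriched in CO2. SS-6 h cells had been resuspended for 6 h in Kuhl medium in which magnesium sulfate was replaced by magnesium chloride, and 0 h cells were sampled at the start, in logarithmic growth on complete medium. No RNA sample of cells moved to fresh sulfur-containing medium for 6 h was among the groups, so loss of sulfur, the change of medium and 6 h of elapsed time cannot be told apart. The measured RNA is that of a whole culture, in which fewer cells in a state and less RNA per cell cannot be told apart.

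Sulfur enters algal cells as sulfate, which is reduced and built into cysteine and then methionine, and through methionine into S-adenosylmethionine, the methyl donor of the cell. Without it, protein synthesis and growth are restricted while light is still absorbed, and green algae typically dismantle part of the photosynthetic apparatus and store carbon as starch or TAG. TAG needs fatty acids, which are made in the chloroplast from acetyl-CoA with reducing power from NADPH, and these are placed on glycerol by acyltransferases.

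The 3 SS-6 h libraries were less alike than those of 0 h. SS-6 h replicate 1 had a correlation with its fellow replicates of 0.949 and 0.966 on the log2(FPKM + 1) scale, against 0.993 between replicates 2 and 3 and 0.992 to 0.995 among the 0 h replicates. Its summed FPKM was 1136889, against 983847 and 945595 in SS-6 h replicates 2 and 3 and 924660 to 977297 at 0 h, and its depth estimated from low genes was 0.753 of that of 0 h replicate 1, where the other 5 libraries had 0.914 to 1. Many results that depend on this library are given with and without it.

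Calls needed a change of 1 or more in either direction on the log2(FPKM + 1) scale together with an adjusted p of at most 0.05 in limma's moderated test. This called 9.64% of the 15220 genes higher and 21.7% lower, and higher genes made up 30.7% of the calls, against 42.8% after median-ratio scaling and 47.9% after quantile normalization, since among genes averaging at least 1 FPKM the median log2 fold change was -0.20 as deposited, -0.0018 with median-ratio scaling, -0.30 in TPM and 0.05 with quantile normalization. Direction differed between level classes set by the mean FPKM over all 18 samples, which a rise at SS-6 h itself increases. Of the 267 genes with a mean FPKM of 500 or more, 36.3% were called higher and 21% lower. Of the 3359 genes between 5 and 20 FPKM, 5.78% were higher and 35.7% lower. Among the 592 genes most abundant in 0 h replicate 1, a choice that favours falls, 17.4% were called higher and 28.9% lower. The link of level and direction thus depends on how the classes are set. With the pseudocount, which makes the changes of low genes look smaller, changes of at least 32-fold were found in 30 higher and 10 lower genes, while changes of at least 4-fold were found in 320 higher and 1239 lower genes. The replicates of SS-6 h lay all above those of 0 h in 25.7% of genes and all below in 40.7%.

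The members of 28 functional lists moved apart from each other. At the high end were the early light-induced proteins (ELIPs), which bind chlorophyll under stress, and the enzymes of fatty acid synthesis, with median log2 fold changes of 2.18 and 1.73. At the low end were cell division genes and the light-harvesting antenna proteins, with medians of -3.89 and -2.66, beside a median of -0.165 over all genes. The antenna, motor and cell division genes and ELIP6 were chosen by the study on these samples. The places of their lists are therefore a description.

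**Figure D1:**
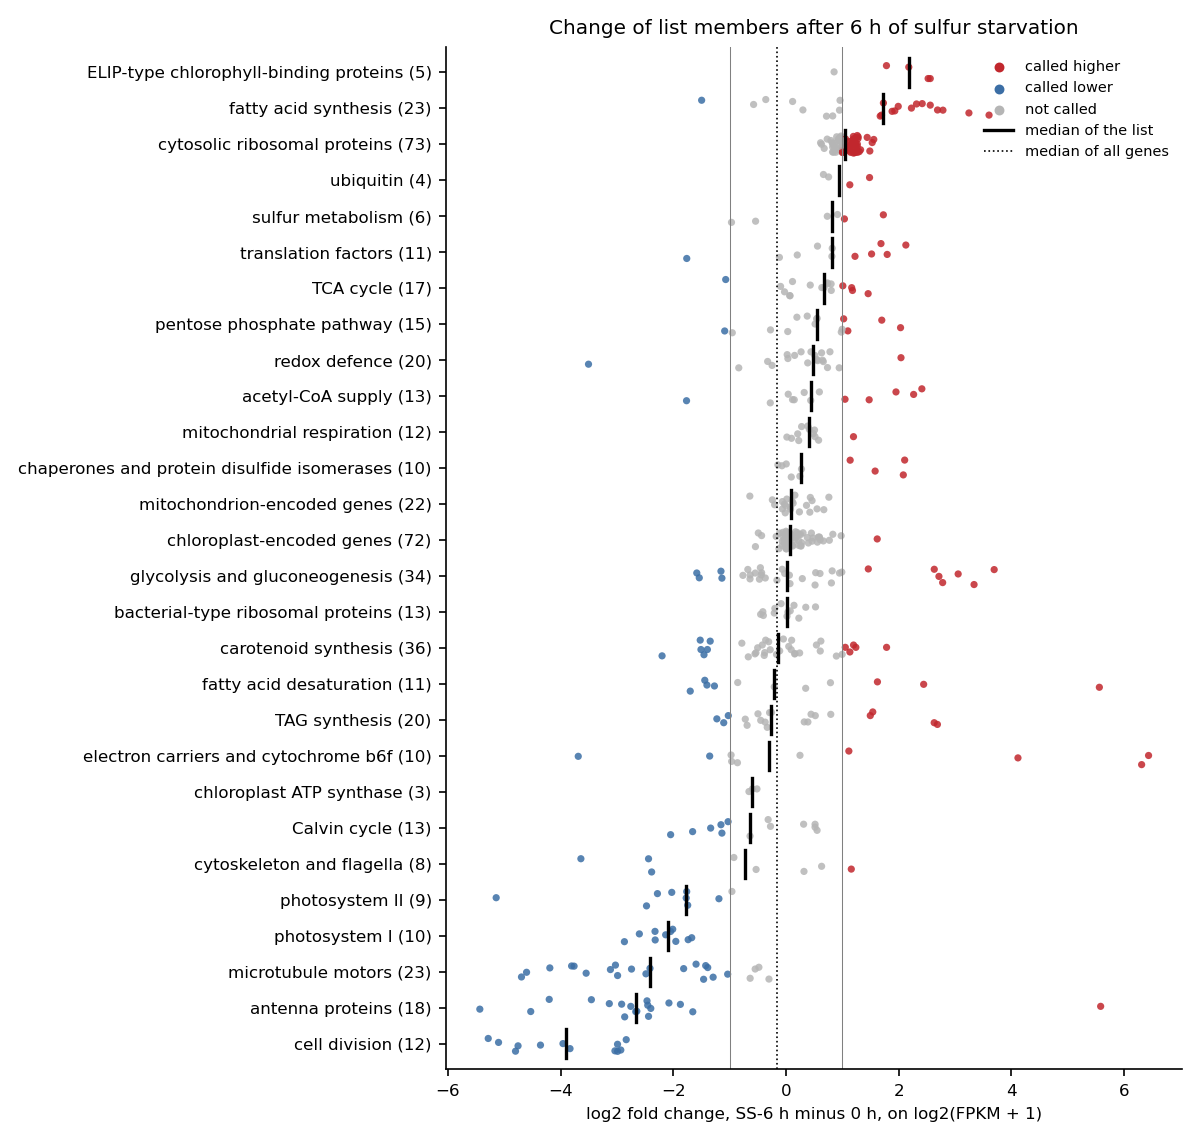
Log2 fold change (SS-6 h minus 0 h, on log2(FPKM + 1)) of each member of 28 lists, with the number of members in parentheses; red points were called higher, blue lower and grey not called, black bars are list medians, grey lines mark -1 and 1 and the dotted line is the median of all genes at -0.165. The ELIP and fatty acid synthesis lists lie mostly to the right and the photosystem, antenna, motor and cell division lists to the left, while single antenna and electron carrier genes stand far to the right of their lists.

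In sulfur metabolism, the 6 listed genes split between uptake and the use of reduced sulfur, and 2 were called higher and 0 lower. Of the annotated genes as abundant as these at 0 h, 17.4% were called higher and 28.9% lower. The cobalamin-independent methionine synthase (Cz11g24160), which makes methionine from homocysteine, had 1523, 1938 and 1872 FPKM at SS-6 h, against 552, 540.0 and 509 FPKM at 0 h, a log2 fold change of 1.73 ± 0.19 (SE, adjusted p = 6.8e-07). S-adenosylmethionine synthetase (METM, Cz15g18200) had 963, 703 and 662 FPKM at SS-6 h, against 382, 372 and 365 FPKM at 0 h, with a log2 fold change of 1.04 that was 0.87 without SS-6 h replicate 1 and then not called. Both rose with no overlap of the groups. Adenosylhomocysteinase (Cz01g01020), which recycles the product of methylation, had a log2 fold change of 0.91 and cysteine synthase (Cz03g05100) one of 0.73, below the fold rule but with all SS-6 h replicates above those of 0 h. The 2 sulfate transporters, with neighbouring identifiers, lay on the other side. Cz03g08070 had 192, 388 and 396 FPKM at SS-6 h, against 559.8, 639 and 618 FPKM at 0 h (log2 fold change -0.97 ± 0.20, adjusted p = 0.00047), and was called lower without SS-6 h replicate 2 (-1.13), without SS-6 h replicate 3 (-1.15) or without 0 h replicate 1 (-1.02). Its lowest value was that of SS-6 h replicate 1, and without that library 0 of the 6 sulfur genes were called lower. Cz03g08060 had 447, 503 and 454 FPKM at SS-6 h, against 621, 666 and 761 FPKM at 0 h (-0.54 ± 0.10). The transporters were listed because they were already abundant at 0 h, and other sulfate transporters were not analysed here.

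Fatty acid synthesis was the metabolic pathway with the broadest rise. Of 23 genes assigned to it by homology, 14 were called higher and 1 lower (60.9 and 4.35%, beside 9.64 and 21.7% over all genes). The list took 1.16, 1.07 and 1.21% of all FPKM at SS-6 h, against 0.265, 0.254 and 0.259% at 0 h (exact two-sided permutation test, p = 0.1, the smallest that 3 against 3 samples allow). The difference of 0.891 percentage points was 0.591 with the most abundant genes left out. KAS I (Cz02g14160), a 3-oxoacyl-acyl carrier protein synthase that adds carbon units to the growing chain, had 1457, 1089 and 1194 FPKM at SS-6 h, against 105, 95.5 and 102 FPKM at 0 h, a log2 fold change of 3.60 ± 0.14 (adjusted p = 1e-11). The 3-oxoacyl reductase KAR1 (Cz01g34370) had 1141, 825 and 891 FPKM at SS-6 h, against 93.7, 95.3 and 107 FPKM at 0 h, a log2 fold change of 3.25 ± 0.12 (adjusted p = 7.7e-12). In both genes every SS-6 h value was several times every 0 h value. The acyl carrier protein ACP1 (Cz09g30220), which holds the chain during synthesis, had 4629, 3313 and 3508 FPKM at SS-6 h, against 500.4, 553 and 593 FPKM at 0 h, and with a 6.96-fold higher mean it moved to rank 5 of all genes by mean FPKM at SS-6 h, whereas it ranked 218 at 0 h.

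The 5 subunit genes of the acetyl-CoA carboxylase complex, which in plants makes malonyl-CoA in the chloroplast, all rose: α-CT (Cz02g12030) by 1.67, β-CT (Cz02g17060) by 1.99, BCCP1 (Cz03g28270) by 1.69, BCCP2 (Cz06g20040) by 2.56 and BC (Cz13g10110) by 2.42 on the log2 scale. The malonyl transferase MCT1 (Cz13g05150) rose by 2.69, the dehydratase HAD (Cz01g09160) by 2.23 and the enoyl reductase ENR (Cz11g20040) by 1.93. The only lower gene of the list was the single-chain ACCase (Cz19g10190), a form of acetyl-CoA carboxylase that in plants acts outside the chloroplast. It had 25.4, 41.7 and 45.9 FPKM at SS-6 h, against 114, 107 and 94.2 FPKM at 0 h, a log2 fold change of -1.50 ± 0.15 (adjusted p = 4.2e-07). The carboxylase complex and the single-chain enzyme thus differed in direction, in all 3 replicates of each.

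Where a step had several isozymes, not all of them were called. Of 4 KAS genes 3 were called higher, and of 7 KAR genes KAR1 and KAR2 were, while KAR3 to KAR7 had log2 fold changes of -0.36 to 0.96. KAR2 (Cz16g00050) was low, with 6.88, 25.4 and 26.6 FPKM at SS-6 h, against 3.16, 3.21 and 1.66 FPKM at 0 h. Under median-ratio scaling KAR3, KAR5 and ACP2 were called higher too.

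**Figure D2:**
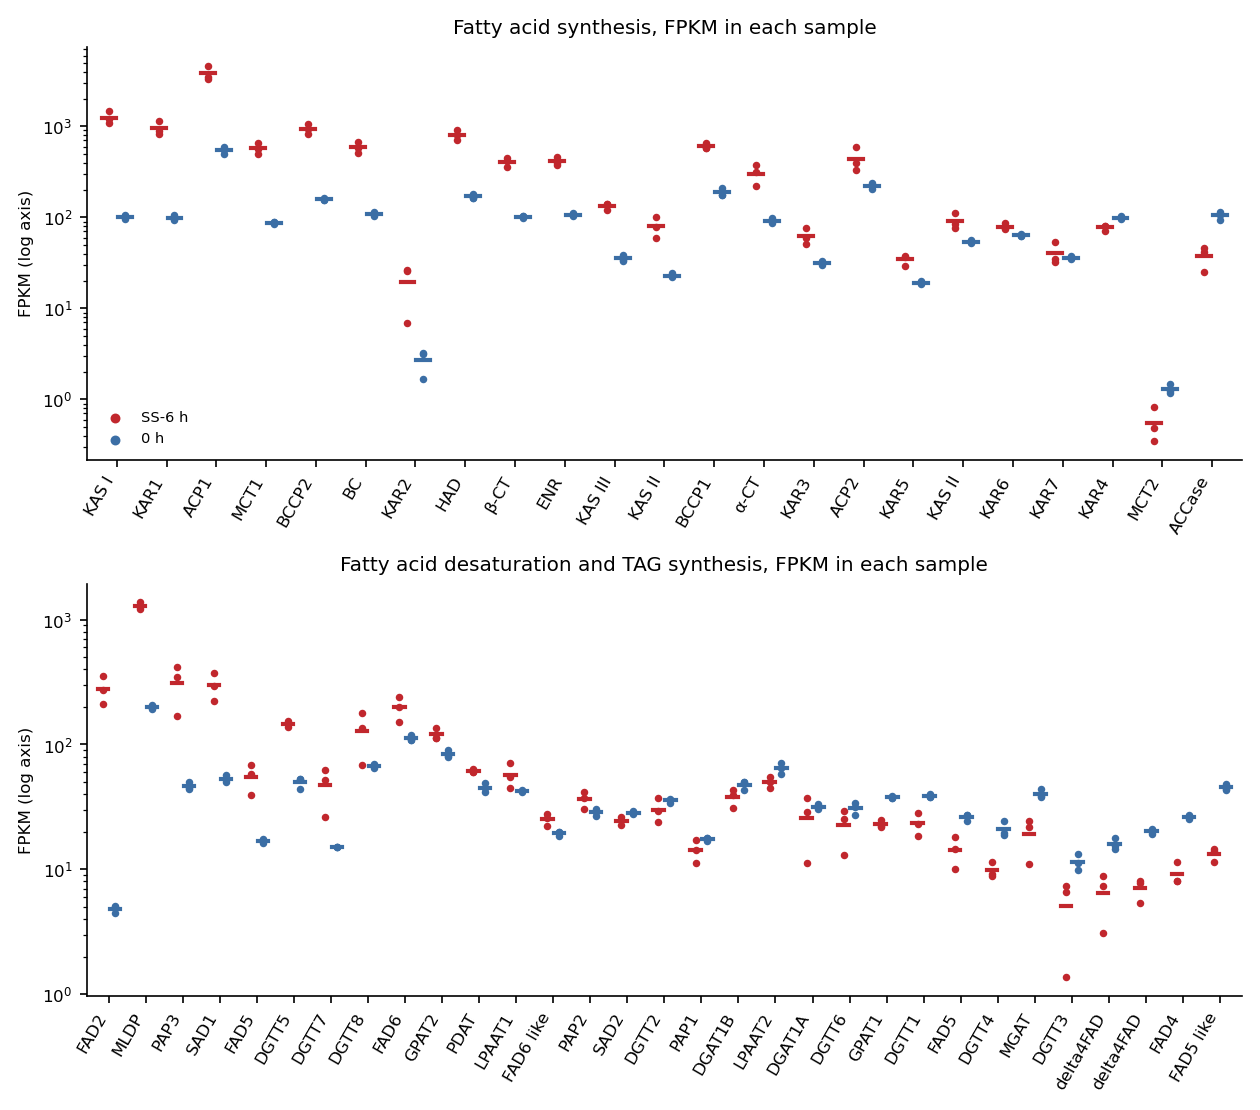
FPKM (log axis) of the 23 fatty acid synthesis genes (top) and the 31 desaturation and TAG synthesis genes (bottom) in each SS-6 h (red) and 0 h (blue) sample, with bars for the means of 3 replicates. KAS I lies between 1089 and 1457 FPKM at SS-6 h and between 95.5 and 105 at 0 h, and FAD2, at the left of the bottom row, between 209 and 357 at SS-6 h and between 4.48 and 5.06 at 0 h.

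The desaturases, which place double bonds in fatty acids, were split, with 3 of 11 called higher and 4 lower. These calls made up 27.3 and 36.4% of the list, beside 9.64% higher and 21.7% lower over all genes. FAD2 (Cz03g33220), in plants the omega-6 desaturase of the endoplasmic reticulum, had 209, 276 and 357 FPKM at SS-6 h, against 5.06, 4.48 and 4.98 FPKM at 0 h, a log2 fold change of 5.56 ± 0.28 (adjusted p = 1.4e-10). This was the largest change of any gene in the lipid lists. The stearoyl desaturase SAD1 (Cz04g09090), which makes oleic acid, had 224, 294 and 377 FPKM at SS-6 h, against 56.8, 50.4 and 51.7 FPKM at 0 h, and rose by 2.44 ± 0.19 (adjusted p = 1.5e-08). The lower genes were those annotated as desaturases of chloroplast lipids, namely FAD5 like (Cz13g01140, -1.70 ± 0.10), FAD4 (Cz12g10230, -1.44 ± 0.14) and 2 delta-4 desaturase-like genes (Cz06g12050, -1.40, and UNPLg00012, -1.27). A gene annotated in the same way, FAD5 (Cz07g00120), rose by 1.62 ± 0.17, and the plastid omega-6 desaturase FAD6 (Cz08g04110) had a log2 fold change of 0.79 that was not called. Under quantile normalization 1 of these genes was called lower in place of 4, and without SS-6 h replicate 1 the list had 3 lower genes.

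Of 20 genes of TAG synthesis and storage, 4 were called higher and 3 lower, and the list's median was -0.28 on the log2 scale. These calls made up 20 and 15% of the list, beside 9.64% higher and 21.7% lower over all genes. The major lipid droplet protein MLDP (Cz04g29220), which coats the droplets of green algae, had 1216, 1262 and 1377 FPKM at SS-6 h, against 206, 193 and 197 FPKM at 0 h, a log2 fold change of 2.69 ± 0.15 (adjusted p = 5.4e-10). It was the highest gene of the list in every sample. The phosphatidate phosphatase PAP3 (Cz16g11240), which makes the diacylglycerol precursor, had 170.0, 349 and 419.6 FPKM at SS-6 h, against 50, 44.9 and 44.4 FPKM at 0 h, and rose by 2.63 ± 0.25 (adjusted p = 1.9e-07), while PAP1 and PAP2 had log2 fold changes of -0.29 and 0.32.

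The type II diacylglycerol acyltransferases, which add the last acyl chain of TAG, did not move together. DGTT5 (Cz09g27290) had 138, 145 and 155 FPKM at SS-6 h, against 52.9, 43.7 and 52.7 FPKM at 0 h, and rose by 1.54 ± 0.10 (adjusted p = 2.4e-09). DGTT7 (Cz11g21100) had 26.1, 51.8 and 63 FPKM at SS-6 h, against 15 FPKM in each of the 3 samples at 0 h, and rose by 1.50 ± 0.22. DGTT8 (Cz08g14220), with 68.6, 135 and 178 FPKM at SS-6 h, against 70.2, 67.9 and 65.2 FPKM at 0 h, overlapped through replicate 1 alone. Its log2 fold change was 0.79 and not called with that library, and 1.18 and called without it. DGTT3 and DGTT4 were called lower at -1.23 and -1.02, and so was the acyltransferase MGAT at -1.10, but without SS-6 h replicate 1 these were -0.64, -0.96 and -0.77 and no gene of the list was called lower. DGTT4 also lost its call with SS-6 h replicate 3 (-0.99) or 0 h replicate 3 (-0.91) left out. The type I enzymes DGAT1A and DGAT1B had log2 fold changes of -0.45 and -0.33 and were not called.

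Acetyl-CoA supply held 5 higher and 1 lower of 13 genes (38.5 and 7.69%, beside 9.64 and 21.7% over all genes). The split ran inside the pyruvate dehydrogenase complex, which turns pyruvate into acetyl-CoA and exists in a chloroplast and a mitochondrial form. For the E1 alpha subunit, PDHC3 (Cz03g08090) had 521, 579 and 654 FPKM at SS-6 h, against 164, 142 and 144 FPKM at 0 h, whereas PDHC1 (Cz18g13050) had 156, 213 and 208 FPKM at SS-6 h, against 187, 172 and 169 FPKM at 0 h. PDHC3 rose by 1.95 ± 0.11 (adjusted p = 3.3e-10), and PDHC1 had a log2 fold change of 0.12 with a 95% interval of -0.08 to 0.31. The same held for E1 beta, with PDHC4 at 2.26 and PDHC2 at 0.44, and for E3, with PDHC7 at 1.48 and PDHC6 at 0.32. The single E2 gene PDHC5 (Cz05g28130) had 716, 635 and 769 FPKM at SS-6 h, against 131, 132 and 133 FPKM at 0 h, and rose by 2.41 ± 0.12 (adjusted p = 1.8e-10). Which copies are targeted to the chloroplast is not given in the sources used here.

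In glycolysis, 7 of 34 genes were called higher and 4 lower (20.6 and 11.8%, beside 9.64 and 21.7% over all genes). The 7 higher genes encoded aldolase or enzymes that follow it on the way to pyruvate. PGI (Cz01g30020), an isomerase upstream of aldolase, was just under the fold rule at 0.95 (adjusted p = 3.1e-09) and past it at 1.16 after median-ratio scaling, so that the limit to later steps rests on the threshold. The NAD-dependent GAPDH (Cz05g34160) had 1573, 1710.0 and 1746 FPKM at SS-6 h, against 241, 265 and 259 FPKM at 0 h, and rose by 2.71 ± 0.12. The phosphoglycerate mutases PGAM1 (Cz06g01110) and PGAM3 (Cz04g11130) rose by 3.34 ± 0.08 and 3.69 ± 0.16, while PGAM2 and PGAM4 to PGAM7 had log2 fold changes of -0.76 to 0.60. PGAM3 had 107, 152 and 185 FPKM at SS-6 h, against 10.5, 10.2 and 9.97 FPKM at 0 h. Of 8 pyruvate kinases, PK3, PK5 and PK7 rose by 2.63, 2.78 and 1.46, and PK8 (Cz10g06190) fell by 1.54 on the log2 scale. Aldolase showed both directions, as FBA4 (Cz03g13070) had 439, 318 and 301 FPKM at SS-6 h, against 37.2, 39.8 and 46.6 FPKM at 0 h (3.05 ± 0.11), and FBA3 (Cz03g06050) had 15.9, 20.8 and 15.6 FPKM at SS-6 h, against 54, 53.4 and 54 FPKM at 0 h (-1.58 ± 0.12). FBA1, the most abundant aldolase, had a log2 fold change of 0.52 and was not called. None of the 3 phosphofructokinases, which control the upper part of the pathway in many organisms, was called, with log2 fold changes of -0.43 to 0.06. After median-ratio scaling 11 genes of the list were called higher and 2 lower, and without SS-6 h replicate 1 it was 7 higher and 3 lower.

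**Figure D3:**
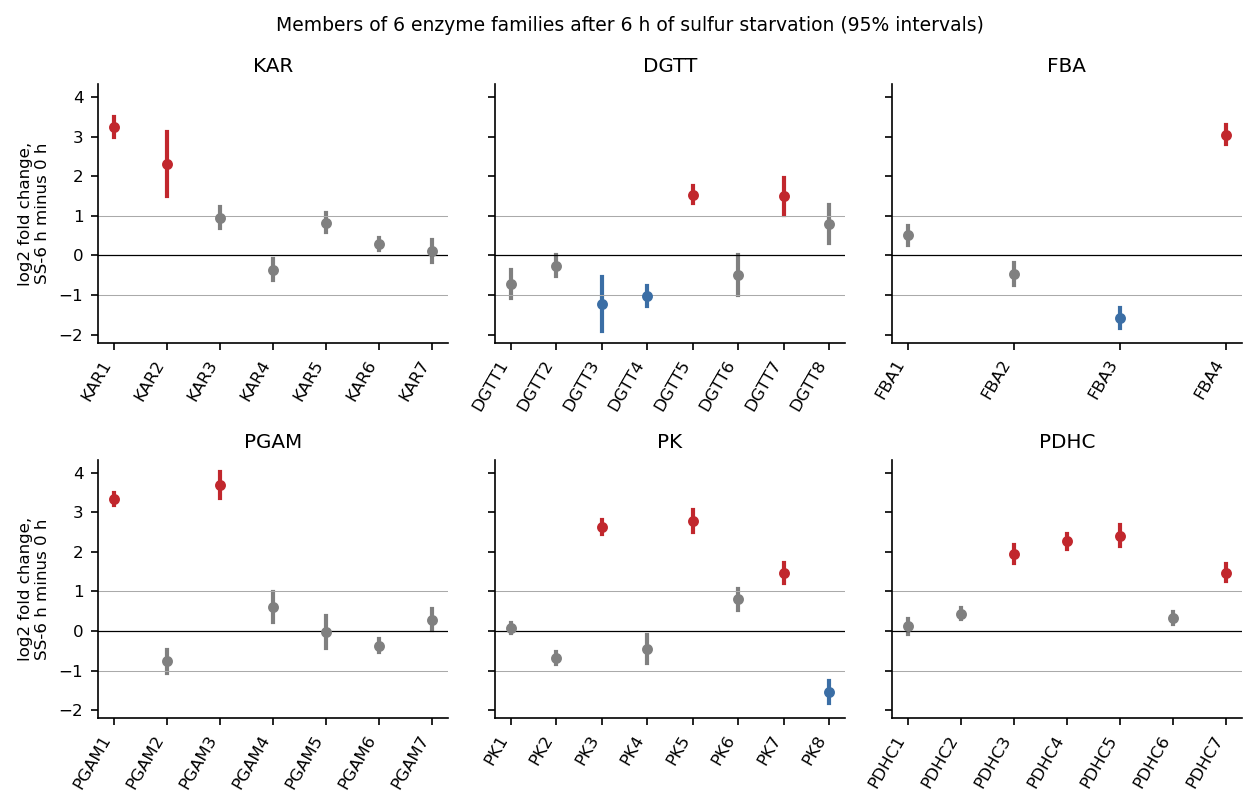
Log2 fold change (SS-6 h minus 0 h) with 95% intervals from limma for each member of 6 enzyme families; red points were called higher, blue lower and grey not called. PGAM1 and PGAM3 stand above 3 while the other 5 PGAM members lie between -0.76 and 0.60, and DGTT, FBA and PK each hold members called in opposite directions.

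The oxidative pentose phosphate pathway is a source of NADPH. Its 3 oxidative steps each had a gene that rose. 6PGD (Cz05g06160) had 1316, 1241 and 1222 FPKM at SS-6 h, against 305, 312 and 304 FPKM at 0 h, and rose by 2.03 ± 0.07 (adjusted p = 5.2e-12). PGLS2 (Cz11g03250) rose by 1.70 and G6PD2 (Cz03g12030) by 1.10, while G6PD1 (Cz06g12080) had a log2 fold change of 0.19 and PGLS1 (Cz04g18010) lay just under the threshold of 1. In all, 4 of 15 genes were called higher and 1 lower (26.7 and 6.67%, beside 9.64 and 21.7% over all genes). The fourth higher gene, RPE2 of the non-oxidative branch, had a log2 fold change of 1.02 that was 0.76 without SS-6 h replicate 1 and also fell under the threshold without 0 h replicate 1 (0.97) or 0 h replicate 2 (0.99). The lower gene, RPI1 (-1.09), lost its call when SS-6 h replicate 3 was left out (-0.88).

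In the TCA cycle 4 of 17 genes were called higher and 1 lower (23.5 and 5.88%, beside 9.64 and 21.7% over all genes). Both citrate synthases rose, CIS2 (Cz02g12210) with 368, 393 and 376 FPKM at SS-6 h, against 141, 133 and 138 FPKM at 0 h (1.46 ± 0.06, adjusted p = 3.1e-11), and CIS1 (Cz02g27080) by 1.18. The 2 genes annotated as the E1 subunit of 2-oxoglutarate dehydrogenase differed in direction, with OGDH1 (Cz05g03220) at 1.17 and OGDH2 (Cz01g28100) at -1.07, the second of these at -0.95 and not called without SS-6 h replicate 1. SDH3 was called at 1.01, but not without SS-6 h replicate 1 (0.87) or 0 h replicate 1 (0.94).

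Carotenoid synthesis had 5 higher and 6 lower genes of 36, and its share of all FPKM was 0.203% at SS-6 h and 0.214% at 0 h (exact two-sided permutation test, p = 0.6). The calls made up 13.9 and 16.7% of the list, beside 9.64% higher and 21.7% lower over all genes. The 3 higher genes before phytoene were in isoprenoid precursor supply, MCS (Cz02g10180) at 1.20, the isopentenyl diphosphate isomerase IPPI1 (Cz08g23110) at 1.13 and the farnesyl diphosphate synthase FPPS (Cz01g03190) at 1.24, and the 6 lower genes all acted at phytoene synthesis or later. The first steps committed to carotenoids were lower, with phytoene synthase (PSY, Cz05g32220) at 9.29, 15.5 and 15 FPKM at SS-6 h, against 37.2, 42.8 and 32.6 FPKM at 0 h (-1.46 ± 0.17, adjusted p = 2.1e-06), and phytoene desaturase (PDS, Cz02g32280) at -1.51 ± 0.09. At the branch point, lycopene epsilon cyclase (LCYe, Cz09g18310), which leads to lutein, had 32.4, 37.5 and 27.9 FPKM at SS-6 h, against 76.7, 83.7 and 91.3 FPKM at 0 h (-1.34 ± 0.13, adjusted p = 3e-07). Lycopene beta cyclase (LCYb, Cz12g10170), which leads to beta-carotene, had 69.2, 74.7 and 75.1 FPKM at SS-6 h, against 42.6, 38.8 and 35.3 FPKM at 0 h, a log2 fold change of 0.89 ± 0.08 that was under the fold rule. The level of LCYb was thus above that of LCYe in every SS-6 h sample and below it in every 0 h sample, in FPKM, which is scaled to transcript length.

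Past beta-carotene, the ketolase BKT1 (Cz13g13100), which makes ketocarotenoids such as astaxanthin, had 52.2, 83.1 and 86.4 FPKM at SS-6 h, against 35, 33.5 and 34.3 FPKM at 0 h (1.05 ± 0.16, adjusted p = 2.9e-05), a call that was lost with SS-6 h replicate 2 (0.95) or SS-6 h replicate 3 (0.92) left out. The second ketolase, BKT2 (Cz04g11250), had a log2 fold change of -0.67 and was not called. The beta-carotene hydroxylase CHYb (Cz12g16080) fell, with 7.28, 13.9 and 16.2 FPKM at SS-6 h, against 40.2, 35.2 and 32.6 FPKM at 0 h (-1.52 ± 0.19). The xanthophyll cycle enzymes ZEP (Cz07g30060) and VDE (Cz06g02070), which interconvert zeaxanthin and violaxanthin, fell by 2.20 and 1.40 on the log2 scale. The largest rise of the list was that of CRTISO3 (Cz14g22040), annotated as a carotenoid isomerase, with 41.7, 42.5 and 37.6 FPKM at SS-6 h, against 11.2, 11.4 and 10.6 FPKM at 0 h (1.78 ± 0.12), while CRTISO1 and CRTISO2 had -0.05 and -0.17.

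The listed nuclear genes of both photosystems fell nearly without exception. They were listed from genes of at least 205.8 FPKM in 0 h replicate 1, a filter that favours falls, and 2 of 10 photosystem I and 2 of 9 photosystem II genes averaged less than that at SS-6 h. All 10 photosystem I genes were called lower, at log2 fold changes of -2.87 to -1.67, and 8 of 9 photosystem II genes, with PSB27A, an assembly factor, at -0.96. Without SS-6 h replicate 1 all 9 photosystem II genes were called lower. All SS-6 h values lay below all 0 h values in the 19 genes, as they did in 40.7% of all genes, and 28.9% of the annotated abundant genes were called lower. PSAN (Cz17g10010) had 224, 162 and 139.7 FPKM at SS-6 h, against 1205, 1268 and 1305 FPKM at 0 h (-2.87 ± 0.18, adjusted p = 1.6e-09). The most extreme gene was PSBQ1 (Cz05g13170), a subunit of the oxygen-evolving complex, with 16, 26.3 and 41.7 FPKM at SS-6 h, against 1005, 1041 and 834 FPKM at 0 h (-5.14 ± 0.34, adjusted p = 2.3e-09). Its near namesake PSBQ2 (Cz05g09100) changed by -2.28 and PSBP (Cz07g15040), of the same complex, by -2.48. Photosystem I genes took 0.39% of all FPKM at SS-6 h and 1.75% at 0 h, and photosystem II genes 0.596% at SS-6 h and 2.24% at 0 h, given as a description because of that filter.

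The antenna genes, which the study selected on these samples and whose direction is therefore no independent evidence, took 0.613% of all FPKM at SS-6 h and 5.89% at 0 h, a difference of -5.28 percentage points that was -2.30 with the most abundant genes left out. At 0 h, LHC16, LHC17, LHC18 and LHC19 ranked 2, 3, 4 and 7 among all genes by mean FPKM, and at SS-6 h they ranked 397, 787, 194 and 518. LHC17 (Cz07g02110) had 314, 182 and 152 FPKM at SS-6 h, against 7594, 9260.3 and 10079 FPKM at 0 h (-5.43 ± 0.20), and LHC18 (Cz07g02100), with a neighbouring identifier, had 1150.4, 745 and 612 FPKM at SS-6 h, against 7686, 9153 and 9820.3 FPKM at 0 h (-3.45 ± 0.20). If these 2 genes are near-identical, the division of reads between them is uncertain. Chlorophyll-binding proteins of the ELIP type went the other way, with 4 of 5 called higher (80%). Among the annotated abundant genes 17.4% were called higher, and over all genes 9.64%. ELIP6, a member of this list, was chosen by the study on these samples, so its direction is a description. UNPLg00452 had 1759, 1318 and 1126 FPKM at SS-6 h, against 224, 229 and 247 FPKM at 0 h (2.56 ± 0.29, adjusted p = 1.3e-06), and ELIP4 and ELIP7 rose by 2.18 ± 0.34 and 1.78 ± 0.36.

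**Figure D4:**
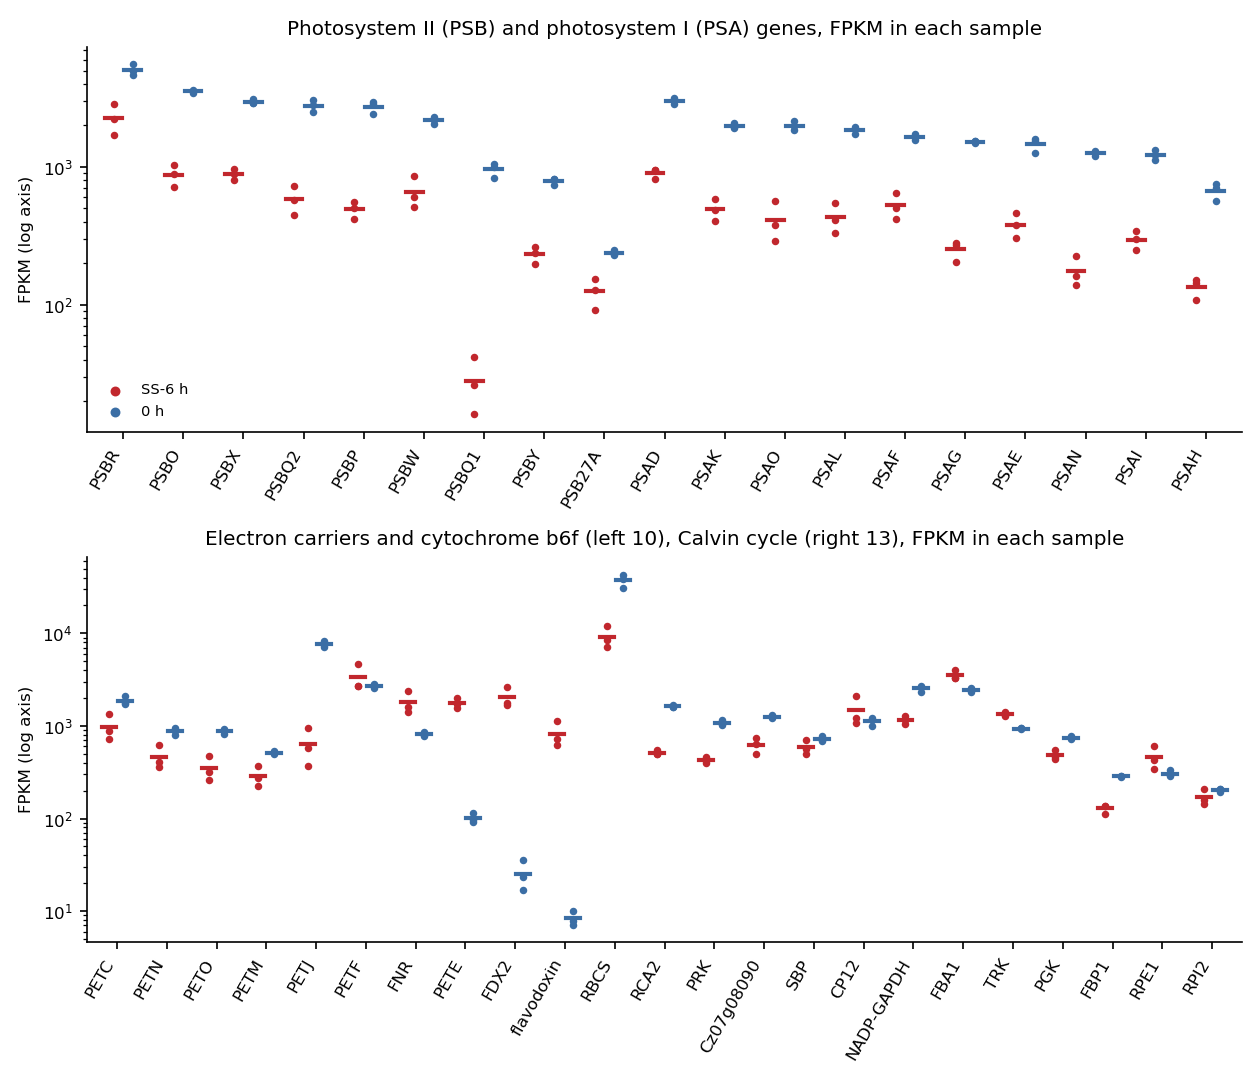
FPKM (log axis) of photosystem II and photosystem I genes (top) and of electron carriers, cytochrome b6f and Calvin cycle genes (bottom) in each SS-6 h (red) and 0 h (blue) sample, with bars for the means of 3 replicates. All 19 photosystem genes are lower at SS-6 h in every sample, while PETE, FDX2 and flavodoxin are higher at SS-6 h and PETJ is lower.

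Soluble carriers that donate electrons to photosystem I changed places. Cytochrome c6 (PETJ, Cz01g35120) and plastocyanin (PETE, Cz01g35130) both carry electrons from the cytochrome b6f complex to photosystem I, the first with iron and the second with copper, and their identifiers follow each other. PETJ had 956, 581 and 367 FPKM at SS-6 h, against 7198, 7402 and 8187 FPKM at 0 h (-3.69 ± 0.25, adjusted p = 3.1e-09). PETE had 2018, 1711 and 1575 FPKM at SS-6 h, against 90.8, 96.3 and 116 FPKM at 0 h (4.12 ± 0.19, adjusted p = 6.4e-11). The sample with the least PETE at SS-6 h thus still had more of it than of PETJ, and every 0 h sample had the reverse. PETE was listed because the study had named it among its largest rises on these samples, and PETJ for its level at 0 h. Their opposite directions are therefore a description.

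On the acceptor side of photosystem I, the abundant ferredoxin PETF (Cz07g28150) had 4654, 2674 and 2678 FPKM at SS-6 h, against 2819, 2566 and 2750.1 FPKM at 0 h, with overlap of the groups and a log2 fold change of 0.25 (95% interval -0.11 to 0.60). FDX2 (Cz13g08120), a second ferredoxin, had 2632, 1696 and 1763 FPKM at SS-6 h, against 16.9, 23.1 and 35.7 FPKM at 0 h (6.31 ± 0.29, adjusted p = 5.6e-11). A flavodoxin (Cz14g01090), which carries electrons with flavin in place of the iron and sulfur of ferredoxin, had 1136, 729 and 618 FPKM at SS-6 h, against 7.14, 7.82 and 10.1 FPKM at 0 h (6.43 ± 0.20, adjusted p = 1.6e-12). The mean of flavodoxin was 99-fold higher and that of FDX2 80.5-fold higher. These 2 genes and PETE were listed because the study had named them among its largest rises, so their direction is a description. The neighbour of flavodoxin by identifier, LHC11 (Cz14g01080), was the single antenna gene that rose, with 232, 239.8 and 209 FPKM at SS-6 h, against 3.05, 3.7 and 4.64 FPKM at 0 h (5.58 ± 0.14). Ferredoxin-NADP+ reductase (FNR, Cz02g17180), which passes the electrons to NADPH, had a log2 fold change of 1.11 with all libraries, but 0.89 and no call once SS-6 h replicate 1 was left out. Within the cytochrome b6f complex, PETO fell by 1.35 on the log2 scale, and PETC, PETN and PETM had -0.97, -0.96 and -0.86 with all libraries and were called lower without SS-6 h replicate 1, at -1.23, -1.19 and -1.06.

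Of 13 Calvin cycle genes, which fix CO2, 6 were called lower and 0 higher. The lower calls made up 46.2% of the list, beside 28.9% of the annotated abundant genes and 21.7% over all genes. The genes were listed for their level at 0 h, which favours falls. At SS-6 h, 2 of the 13 averaged less than the filter of 205.8 FPKM. The small subunit of Rubisco (RBCS, Cz17g13100) was the most abundant gene of both groups, with 11887, 8491 and 7112 FPKM at SS-6 h, against 30868, 38294 and 42870.0 FPKM at 0 h (-2.05 ± 0.33, adjusted p = 4.6e-05). Rubisco activase (RCA2, Cz13g02230) had 494, 551 and 497 FPKM at SS-6 h, against 1665, 1594 and 1604 FPKM at 0 h (-1.66 ± 0.07, adjusted p = 3.6e-11). The 4 other lower genes were 2 phosphoribulokinases, NADP-dependent GAPDH and FBP1, at -1.34 to -1.03. FBP1 is also in the glycolysis and gluconeogenesis list, so the lower genes were not all particular to the cycle. Other enzymes that the cycle shares with glycolysis or the pentose phosphate pathway were not called. These were FBA1, TRK, RPE1, RPI2 and PGK, with log2 fold changes of 0.52, 0.52, 0.55, -0.28 and -0.64. SBP (-0.32) and the regulator CP12 (0.31) were not called either. RBCS was at -0.36 and not called after quantile normalization. After median-ratio scaling 3 of the 13 were called lower.

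Cytosolic ribosomal protein genes were higher by a small and even amount. All 73 cytosolic ribosomal protein genes had SS-6 h replicates above those of 0 h, as did 25.7% of all genes. Their log2 fold changes were 0.61 to 1.56, and 42 passed the fold rule (57.5%, beside 17.4% of the annotated abundant genes and 9.64% over all genes). That count rests on the threshold and on a single library. Without SS-6 h replicate 1 it was 5, with a median of 0.78 against 1.04 with it, and it was 66 without SS-6 h replicate 3, 69 after median-ratio scaling and 4 after quantile normalization. The list took 15.7, 9.95 and 9.03% of all FPKM at SS-6 h, against 5.42, 5.56 and 6.41% at 0 h, so replicate 1 stood out while replicates 2 and 3 were also above every 0 h sample. The 13 ribosomal proteins of bacterial type, as found in chloroplasts and mitochondria, had a median of 0.02, and limma called 0 of them, with 3 above and 4 below 0 at an adjusted p of at most 0.05 without a fold rule.

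Among translation factors 5 of 11 rose and 1 fell (45.5 and 9.09%). Of the annotated abundant genes, from which these were listed, 17.4% were called higher and 28.9% lower, and over all genes 9.64 and 21.7%. The 2 subunits of the nascent polypeptide-associated complex, which binds proteins leaving the ribosome, rose together, with the alpha subunit (Cz03g13200) at 1550.5, 980.4 and 879 FPKM at SS-6 h, against 242, 246 and 269 FPKM at 0 h (2.13 ± 0.15, adjusted p = 3.9e-09), and the beta subunit (Cz01g02060) at 1.69. A gene for elongation factor 1-alpha (Cz02g32220) rose by 1.79 ± 0.09. Of 3 genes for elongation factor 2, Cz02g31270 rose by 1.22, its neighbour Cz02g31260 had a log2 fold change of 0.56, and Cz07g06160 fell, with 106, 90.6 and 77.9 FPKM at SS-6 h, against 264, 309 and 366 FPKM at 0 h (-1.76 ± 0.15).

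Of 10 chaperones and protein disulfide isomerases, which fold proteins, 4 were called higher and 0 lower (40 and 0%). The shares were 17.4 and 28.9% among the annotated abundant genes, from which these were listed, and 9.64 and 21.7% over all genes. The Hsp70 gene Cz06g15020 had 1094, 1481 and 1455 FPKM at SS-6 h, against 334, 311 and 297 FPKM at 0 h (2.08 ± 0.11), and the Hsp90-type gene Cz02g06070 rose by 2.10 ± 0.10. The Hsp70 annotated as the form of the endoplasmic reticulum (Cz17g14060) and the 3 protein disulfide isomerases had log2 fold changes of -0.14 to 0.27. In the ubiquitin list, the conjugating enzyme Cz16g21070 and the polyubiquitin gene Cz16g13170 rose by 1.48 and 1.13. Of 20 redox defence genes, 1 rose and 1 fell (5% each). This was below the 17.4 and 28.9% of the annotated abundant genes and the 9.64 and 21.7% over all genes. The peroxiredoxin Cz08g25270, which removes peroxides, had 3585, 2234 and 2134 FPKM at SS-6 h, against 618, 594 and 667 FPKM at 0 h (2.04 ± 0.25, adjusted p = 2.4e-06), whereas the other 6 peroxiredoxins had log2 fold changes of -0.84 to 0.78. The thioredoxin TRX3 (Cz03g29230) had 85.8, 74 and 63.3 FPKM at SS-6 h, against 876, 827 and 841 FPKM at 0 h (-3.50 ± 0.11, adjusted p = 2.1e-12).

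Genes of mitosis were close to 0 FPKM at SS-6 h. The 12 cell division genes and 23 microtubule motor genes were chosen by the study on these samples, so their direction is a description. The chromosome condensation subunit SMC4 (Cz03g14230) had 0.32, 1.43 and 1.53 FPKM at SS-6 h, against 80, 87.4 and 65.8 FPKM at 0 h, and the kinetochore protein NDC80 (Cz06g36290) had 0.88, 1.15 and 0.85 FPKM at SS-6 h, against 68, 67 and 63.3 FPKM at 0 h. Their means were 71.1-fold and 68.9-fold lower. Cyclin A (Cz01g07180) averaged 0.56 FPKM at SS-6 h and 42 FPKM at 0 h, and CDC6 (Cz11g11020), which licenses DNA replication, 0.293 FPKM at SS-6 h and 25.6 FPKM at 0 h. The motor gene Cz03g29240, next in identifier to TRX3, had 2.2, 2.55 and 1.89 FPKM at SS-6 h, against 85.9, 80.2 and 79.6 FPKM at 0 h (-4.69 ± 0.20). In the cytoskeleton list, whose genes were taken for their level at 0 h, 3 tubulins fell, with the alpha tubulin Cz11g05030 at 82.3, 67.9 and 61.5 FPKM at SS-6 h, against 887, 888 and 878 FPKM at 0 h (-3.64 ± 0.22, adjusted p = 7.8e-10), while the 2 actin genes had log2 fold changes of 0.63 and 0.32. Of the 8 genes of this list 1 was called higher and 3 lower (12.5 and 37.5%, beside 17.4 and 28.9% of the annotated abundant genes). The rise was that of Cz10g29070 (log2 fold change 1.16), and without SS-6 h replicate 1 the list had 0 higher genes. The division of reads between near-identical tubulin genes is uncertain.

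In mitochondrial respiration 1 of 12 genes was called higher (8.33%, beside 17.4% of the annotated abundant genes and 9.64% over all genes). It was the ADP/ATP carrier Cz05g27130 (1.20 ± 0.10), while the ATP synthase subunits had log2 fold changes of 0.10 to 0.51. Of 72 chloroplast-encoded genes 12 had a mean FPKM of at least 1, in libraries made from poly-A RNA, and the call of 1 of them (CzCPg01210, 1.62) was lost without SS-6 h replicate 1 (1.17) or 0 h replicate 2 (0.96). None of 22 mitochondrion-encoded genes was called by limma, with 5 above and 1 below 0 at an adjusted p of at most 0.05 without a fold rule.

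The most abundant RNAs were largely exchanged. Of the 10 genes with the highest mean FPKM, 3 were shared by both groups, RBCS and the unnamed Cz11g04220 and Cz19g02190. The 10 leading genes of 0 h took 2.64% of all FPKM at SS-6 h and 10.2% at 0 h, and those of SS-6 h took 4.4% at SS-6 h and 5.88% at 0 h, where in each case the choice of genes favours the group it was made on. Cz14g00020, annotated as resembling perilipin-4, a lipid droplet protein of animals, had 4455, 3717 and 3379.9 FPKM at SS-6 h, against 989, 1055 and 1094 FPKM at 0 h (1.87 ± 0.16) and ranked 4 at SS-6 h and 81 at 0 h. Cz11g04220, of unknown function, ranked 2 at SS-6 h and 10 at 0 h, with a log2 fold change of 1.11 that was 0.95 and not called without SS-6 h replicate 1.

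The 2 largest rises of all genes were those of Cz03g06020 and Cz03g06010, which have neighbouring identifiers and no annotation in the sources used. Cz03g06010 had 1003, 1288 and 1341 FPKM at SS-6 h, against 0.55, 0.84 and 3.48 FPKM at 0 h (9.01 ± 0.30), and Cz03g06020 had 3053, 1319 and 1181 FPKM at SS-6 h, against 0.4, 0.46 and 4.47 FPKM at 0 h (9.56 ± 0.47). In both the highest 0 h value was that of replicate 3. The largest fall, in UNPLg00344, left 0.5, 0.4 and 0.66 FPKM at SS-6 h, against 222, 183 and 185 FPKM at 0 h (-7.02 ± 0.39). Only 7 genes were listed in all SS-6 h samples and in no 0 h sample, the highest with a mean of 76.7 FPKM, and 60 genes the other way round, the highest with 18.5 FPKM.

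Many of the pathway genes above had other levels at SS-12 h. In the direct comparison of SS-12 h with SS-6 h, 10.1% of all genes were called higher and 5.18% lower. In fatty acid synthesis 14 of 23 genes were called lower at SS-12 h and 0 higher, with a median log2 difference of -1.57. In acetyl-CoA supply 6 of 13 genes were called lower and 0 higher, and in glycolysis 7 of 34 lower and 2 higher, with medians of -0.24 and -0.07, and the other genes of both lists were not called between the times. A leading gene of each of 25 lists, the largest called rise or, in lists with no rise, the largest fall, was also compared, and 14 of the 25 differed. These genes were picked for extreme values at SS-6 h, and a move back at SS-12 h is favoured by that choice, so the count is a description. All 18 antenna genes, 9 of 10 photosystem I genes, 7 of 9 photosystem II genes and 10 of 12 cell division genes were called higher at SS-12 h. Antenna and cell division genes were chosen on these samples and photosystem genes for their level at 0 h. Their counts are therefore a description too. Cytosolic ribosomal proteins and sulfur metabolism had 0 genes called either way between these times in limma's test. Of the 13 bacterial-type ribosomal proteins, 1 was called higher at SS-12 h. The methionine synthase averaged 2828 FPKM at SS-12 h and 1778 FPKM at SS-6 h. FDX2 averaged 45.7 FPKM at SS-12 h and 2030.5 FPKM at SS-6 h, while PETE averaged 2904 FPKM at SS-12 h and 1768 FPKM at SS-6 h. Of the 3 carriers with the largest rises, FDX2 was thus lower at SS-12 h, and PETE and flavodoxin were not.

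**Figure D5:**
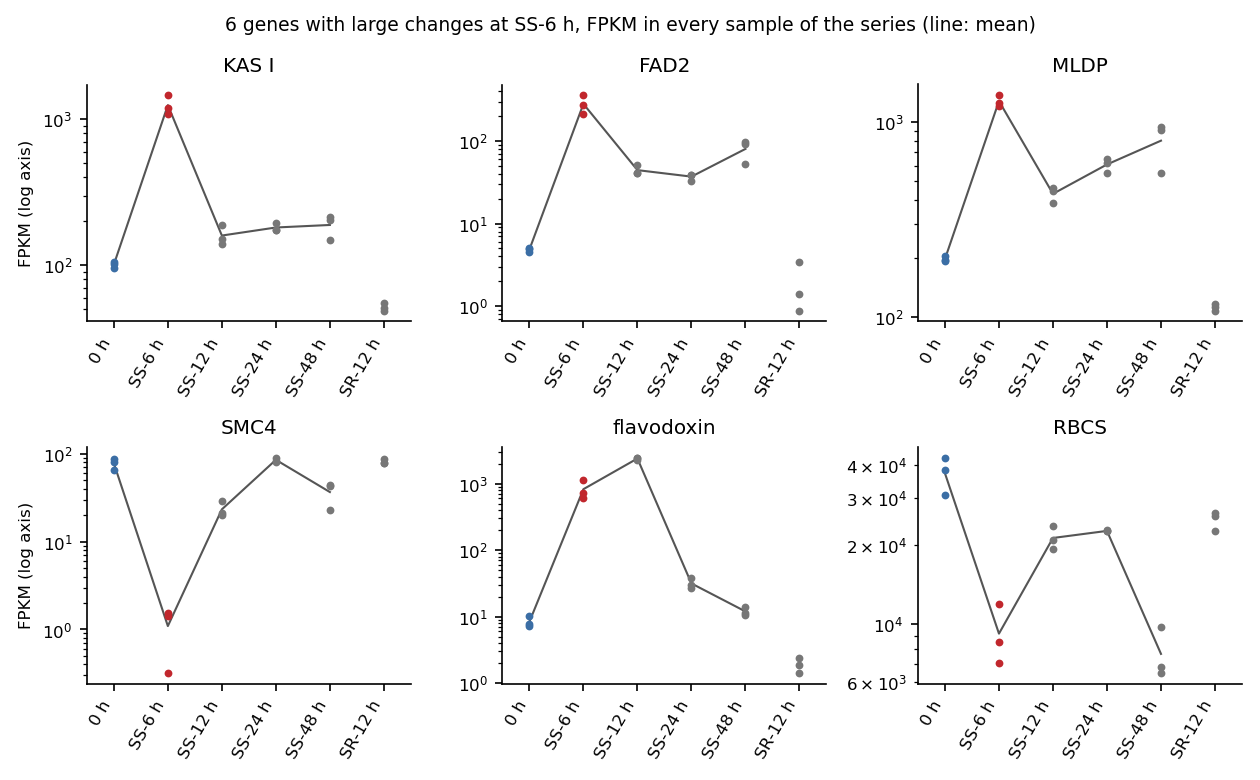
FPKM (log axis) of 6 genes in each sample of the series against condition, with lines through the means of 3 replicates at 0 to 48 h; red points are SS-6 h, blue points 0 h, and SR-12 h is 12 h after sulfur was supplied again. KAS I, FAD2 and MLDP peak at SS-6 h, with means of 1247, 281 and 1285 FPKM, SMC4 is lowest there with 1.09 FPKM, and flavodoxin is higher still at SS-12 h.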

How the data were processed

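Per the labels and the study's methods, the authors purified poly-A RNA, sequenced single-end reads, aligned them with HISAT and Bowtie2 and calculated FPKM with RSEM (versions and genome build not given in the sources used here). The deposited FPKM values, given to 0.01, hold no counts, so depth was estimated from the smallest steps of genes of 0.05 to 0.4 FPKM, and precision was taken from the spread of 3 biological replicates.

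Values of log2(FPKM + 1), a pseudocount of 1 FPKM, of all 18 samples were fitted in limma 3.58.1 (empirical Bayes moderation with a trend) under R 4.3.3 with no replicate block, and p was adjusted by Benjamini-Hochberg over 15220 genes. The study's own test works on counts, which were not analysed here. Python 3.11.15 (pandas 2.3.3, NumPy 2.4.6, matplotlib 3.10.9, SciPy 1.17.1) was used for tables and plots. Errors are limma's standard errors, and shares of summed FPKM were compared by exact permutation tests. The fit was tested on simulated data.

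Lists came from the study's tables: homology assignments for central carbon, lipid and carotenoid pathways, annotations of the 592 genes most abundant in 0 h replicate 1 (at least 205.8 FPKM) for photosystems, ribosome, sulfur and the like, and enriched or extreme genes, chosen on these samples, for antenna, motors, cell division, PETE, FDX2, flavodoxin and ELIP6. Members and lists were chosen with earlier results of these data known. Named were all sulfur and electron carrier genes, from each list the 2 largest called changes in either direction whose groups did not overlap, isozymes that differed in call, the 10 most abundant genes of each group and the 5 largest changes each way, of which at most 2 without annotation; other list members named were chosen after their values were seen.

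Alternatives were filters on the mean FPKM (at least 1 or 5), pseudocounts of 0.1 and 0.5, median-ratio, TPM and quantile scaling, only the 6 samples, a replicate block, no trend, sample weights, an adjusted p of at most 0.001, no fold rule and leaving out each replicate. The median-ratio scaling without SS-6 h replicate 1 was chosen after seeing the data. Sequences and coordinates were not used here.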

Additional observations from a re-analysis of the deposited data

Results flagged for a closer look

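For 14 genes, each the largest called rise of its list or, in lists with no rise, the largest fall, the difference from 0 h was not the same at 6 and 12 h of sulfur starvation, tested as SS-12 h minus SS-6 h in the same limma fit with Benjamini-Hochberg adjustment. Both effects share the 0 h samples, which cancel in the direct comparison. The genes were picked for extreme values at SS-6 h, which favours a move back at SS-12 h, so the p-values are no independent evidence of one.

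In 9 genes that had risen at SS-6 h the level was lower at SS-12 h. KAS I of fatty acid synthesis averaged 159.7 ± 24.9 FPKM at SS-12 h and 1247 ± 189 FPKM at SS-6 h (SD, n = 3 each; log2 difference -2.96, adjusted p = 3.4e-10 by limma). FAD2 averaged 44.3 FPKM at SS-12 h and 281 FPKM at SS-6 h (-2.61, adjusted p = 1.5e-06), and MLDP of lipid droplets 429 FPKM at SS-12 h and 1285 FPKM at SS-6 h (-1.58, adjusted p = 5e-07). In carbon metabolism the log2 differences were -2.21 for PGAM3, -2.16 for the pyruvate dehydrogenase subunit PDHC5 and -1.39 for 6PGD, with adjusted p of 1.5e-08, 2.1e-09 and 8.5e-10 in limma. The carotenoid isomerase CRTISO3 differed by -1.23 (adjusted p = 5.6e-07), the ELIP-type UNPLg00452 by -1.18 (adjusted p = 0.0031) and the peroxiredoxin Cz08g25270 by -2.11 (adjusted p = 3.6e-06). The last of these averaged 616 FPKM at SS-12 h and 626 FPKM at 0 h.

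In the other 5 genes the level was higher at SS-12 h. The flavodoxin Cz14g01090 differed by 1.58 (adjusted p = 7.9e-06) and its neighbour LHC11 by 1.82 (adjusted p = 3e-08), both having risen at SS-6 h already. Among genes that were lower at SS-6 h than at 0 h, RBCS differed by 1.24 (adjusted p = 0.005), the motor Cz03g29240 by 3.71 (adjusted p = 1.2e-09) and SMC4 (Cz03g14230) by 3.57 (adjusted p = 1.7e-08), with 23.2 FPKM at SS-12 h and 1.09 FPKM at SS-6 h.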

How the results depend on the processing

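None of the 105 called genes among the 168 named changed sign under any alternative, whereas 21 of the 63 not called did under at least 1, from log2 fold changes of up to 0.67 in size. Without a fold rule 4101 genes were higher and 6419 lower, and after quantile normalization 2070 were lower. Leaving out single replicates gave 1375 to 1647 higher and 3028 to 3502 lower genes. Median-ratio scaling without SS-6 h replicate 1, chosen after seeing the data, gave 1868 higher and 2563 lower.

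Deviations of same-numbered samples from their group means correlated at -0.424, 0.199 and -0.57, and no SS-6 h replicate correlated best with its own number. Deviations from a mean of 3 samples depend on each other, so these values cannot decide whether the samples were paired. A replicate block gave 1467 higher and 3306 lower genes.

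Counts of higher list members moved as follows. Without a fold rule they were 4 in sulfur metabolism, 73 in cytosolic ribosomal proteins, 9 in translation factors, 13 in redox defence, 9 in mitochondrial respiration, 4 in ubiquitin, 9 in TAG synthesis, 10 in the pentose phosphate pathway, 14 in glycolysis, 11 in the TCA cycle, 8 in acetyl-CoA supply and 4 among chloroplast-encoded genes, and counts of lower members were 5 in the cytoskeleton and 17 in carotenoid synthesis. Quantile normalization gave 1 in sulfur metabolism, 4 in ribosomal proteins, 0 in respiration, 1 in ubiquitin, 2 in the pentose phosphate pathway, 1 in the TCA cycle and 8 among chloroplast-encoded genes, with 1 lower desaturase and 12 lower motors. Median-ratio scaling gave 69 ribosomal proteins, 2 redox genes, 11 glycolysis genes and 2 chloroplast-encoded genes, with 3 lower Calvin cycle genes, and without SS-6 h replicate 1 it gave 2 redox and 11 glycolysis genes. TPM rescaling gave 1 sulfur gene and 2 pentose phosphate genes, and sample weights 1 sulfur gene, 20 ribosomal proteins and 3 chloroplast-encoded genes. Pseudocounts of 0.1 and 0.5 each gave 4 chloroplast-encoded genes, the fit of only 6 samples and the stricter p 0 each, and a mean FPKM of at least 5, which removes genes, 11 lower motors. Leaving out single replicates gave 1 to 2 sulfur genes, 5 to 66 ribosomal proteins, 1 to 2 redox genes and 0 to 3 chloroplast-encoded genes. Differences in shares without the most abundant genes were -2.297 percentage points for antenna, -1.568 for photosystem I, -1.527 for photosystem II, -0.537 for the Calvin cycle, 0.591 for fatty acid synthesis and 0.279 for glycolysis. Where no setting's construction shows it, the cause was not tested.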

Other observations

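Among genes that the study lists as its largest rises on these samples, some belong to none of the lists above, and a pair is given here as a description, chosen after the values were seen. A putative alcohol dehydrogenase (Cz12g09220), an enzyme class that interconverts alcohols and aldehydes, had 1209, 1430.1 and 1445 FPKM at SS-6 h, against 21, 23.5 and 29.7 FPKM at 0 h, and averaged 145 FPKM at SS-12 h. A peroxidase-like gene (Cz15g21190) had 1050.1, 1122 and 1206 FPKM at SS-6 h, against 12, 15.3 and 17.1 FPKM at 0 h, and averaged 52.55 FPKM at SS-12 h. Both were above 1000 FPKM in all SS-6 h samples and under 30 FPKM in all 0 h samples.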
